A study of Homo sapiens with 6 samples.

Results

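The genes described here encode parts of the phosphoinositide 3-kinase (PI3K) pathway: 4 class I catalytic subunits (PIK3CA, PIK3CB, PIK3CD and PIK3CG), 2 regulatory subunits (PIK3R1 and PIK3R5), the B-cell adaptor PIK3AP1, the lipid phosphatase INPP5D and the kinase AKT1. They were chosen by name, and all 9 were found among the 25277 genes of the table. Of the 9, 8 had a mean of at least 1 FPKM and were tested, and PIK3R5 did not. Their levels were measured by RNA-seq in 6 libraries from 2 established human lines, Jeko and Rec-1, both derived from mantle cell lymphoma, a cancer of B cells. All stable lines held Cas9 and a tet-on vector, which doxycycline switches on, and RNA was taken 48 h after doxycycline. In each line 1 library came from cells with the empty vector (control), 1 from cells with NR4A1 sgRNA 1 and 1 from cells with NR4A1 sgRNA 2. An sgRNA is the guide that directs Cas9 to a gene, here to NR4A1, which encodes a nuclear receptor. By its title the study joins NR4A1 inhibition with ibrutinib, a drug against the kinase BTK, and no library is labelled as treated with that drug. Whether each stable line was a single clone or a pool is not stated in the labels. The 2 guides of a line were used as its replicates, so the p-values below measure the spread between guides, which may be technical.

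In B cells, PI3K is recruited to the membrane by adaptors such as PIK3AP1 after the B-cell receptor is engaged. Its catalytic subunit makes the lipid PIP3, which recruits and activates kinases such as AKT1, and INPP5D removes a phosphate from PIP3. PIK3CA and PIK3CB are expressed in most tissues, whereas PIK3CD and PIK3CG are mainly found in white blood cells. The subunits encoded by PIK3CA, PIK3CB and PIK3CD bind regulatory subunits such as that of PIK3R1, and the subunit encoded by PIK3CG binds those of PIK3R5 and PIK3R6.

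Before the PI3K genes, the libraries were checked against their labels. The targeted gene NR4A1 had 5.99 FPKM without a guide and 3.89 and 4.44 FPKM with guides 1 and 2 in Jeko. In Rec-1 it had 11.6 FPKM in the library labelled control and 27.4 and 12.7 FPKM with guides 1 and 2. FPKM are fragments scaled by transcript length and by the mapped fragments of the library. NR4A1 was thus lower than in the control with both guides in Jeko and higher with both in Rec-1, and neither difference passed (limma adjusted p = 0.748 and 0.391). It did pass as higher in Rec-1 sgRNA than in Jeko sgRNA (log2 difference 1.94, SE 0.40, limma adjusted p = 0.0381). Under 13 alternatives that difference ranged from 1.41 to 2.46. Whether Cas9 cut NR4A1 cannot be read from these RNA levels, since a cut gene can still be transcribed. The library labelled Rec-1 control was 2-fold or more away from the control of Jeko at 108 of 10316 tested protein-coding genes. From the libraries labelled Rec-1 sgRNA 1 and 2 it was that far away at 2990 and 2908. CCND1, which encodes cyclin D1 and is highly expressed in mantle cell lymphoma, was at 495 FPKM in the library labelled Rec-1 control and between 442 and 815 in the Jeko libraries, and at 0.696 and 0.592 in those labelled Rec-1 sgRNA. The 8 markers of mantle cell lymphoma and B cells summed to between 900 and 1399 FPKM, and 7 of the 8 reached 1 FPKM in some library, the exception being CD5 at 0.0785 FPKM or less. The 5 T-cell markers in the table summed to 102 and 120 FPKM in the Rec-1 sgRNA libraries, against between 2.69 and 5.69 in the other 4 libraries. Of these sums CD3D made up 66.3 and 95.3 FPKM, CD3G 30.5 and 18.7 and CD3E 5.19 and 5.80. In the other 4 libraries CD3G was at 4.96 FPKM or less and CD3E at 0.531 or less. CD2 was at 0.0288 and 0 and CD8A at 0 in Rec-1 sgRNA 1 and 2. The sums of 6 myeloid markers lay between 0.573 and 2.63 FPKM, those of 4 fibroblast markers between 0.00846 and 3.65, and those of 4 plasma cell markers between 167 and 314. Of the plasma cell markers, XBP1 was at 163 and 216 FPKM in Rec-1 sgRNA 1 and 2 and between 66.0 and 189 in the other 4 libraries. The others were lower in Rec-1 sgRNA, SDC1 at 1.22 and 1.86 against 12.2 or more, IRF4 at 28.2 and 25.1 against 71.1 or more, and PRDM1 at 1.38 and 0.953 against 2.99 or more. The 3 erythroid markers were listed at 0. The part of these differences in the results below was not tested, and every comparison with Rec-1 sgRNA includes them. In bulk RNA, fewer cells that express a gene and less RNA per cell cannot be told apart.

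The promoters of PIK3CD, PIK3CG and INPP5D are shown because, of the 9 genes, these 3 passed the test in at least 1 of the comparisons below. The sequences are from RefSeq (GRCh38.p14 table), 250 bases before and 50 from the start site on, 5′ to 3′ on the strand of the gene, and were placed in GRCh37 by exact match. Capitals mark matches to any motif named below other than CCAAT and TATAAA, and in these windows the matches are all to GAGGAAGT or its reverse complement ACTTCCTC, letters that the ETS factor PU.1 recognises.
PIK3CD, chr1:9711539-9711838, plus strand: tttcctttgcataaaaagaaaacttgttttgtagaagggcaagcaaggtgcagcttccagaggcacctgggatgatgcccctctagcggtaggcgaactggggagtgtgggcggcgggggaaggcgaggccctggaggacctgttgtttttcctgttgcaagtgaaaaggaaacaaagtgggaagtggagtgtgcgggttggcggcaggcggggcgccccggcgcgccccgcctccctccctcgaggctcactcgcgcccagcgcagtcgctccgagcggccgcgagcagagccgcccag
PIK3CG, chr7:106505674-106505973, plus strand: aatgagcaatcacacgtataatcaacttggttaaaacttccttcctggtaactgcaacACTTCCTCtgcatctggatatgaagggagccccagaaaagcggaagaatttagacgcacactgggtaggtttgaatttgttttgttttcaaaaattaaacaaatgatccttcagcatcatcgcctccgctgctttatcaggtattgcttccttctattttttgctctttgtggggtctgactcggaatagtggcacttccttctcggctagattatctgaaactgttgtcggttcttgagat
INPP5D, chr2:233924802-233925101, plus strand: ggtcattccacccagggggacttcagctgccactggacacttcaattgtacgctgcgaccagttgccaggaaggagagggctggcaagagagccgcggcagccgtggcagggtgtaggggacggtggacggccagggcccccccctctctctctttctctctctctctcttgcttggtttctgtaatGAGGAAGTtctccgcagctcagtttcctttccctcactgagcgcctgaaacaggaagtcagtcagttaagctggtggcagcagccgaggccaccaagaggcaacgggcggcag
The windows of PIK3CG and INPP5D each held these letters once, starting at positions −192 and −63 from the RefSeq start site. The canonical GENCODE start of PIK3CG lies 197 bases before its RefSeq start, so the match in PIK3CG is just downstream of that start, whereas the starts of INPP5D are the same. They were the only 2 of the 17 RefSeq windows of the 9 genes that did, against 2.59% of all 35116 windows in the table. PIK3CD has 3 windows, of which that at the start of the canonical GENCODE transcript is printed, and none of the 3 held the letters. The motif AAAGGTCA (NBRE), to which NR4A1 binds as a monomer, was in none of the 17 windows on either strand and in 1.22% of all windows. On both strands TGANTCA (AP-1), CCGGAAGT (ETS) and the NF-κB motif had no match in the 17 windows, against 7.71%, 4.14% and 0.558% of all windows. CACGTG (E-box) matched in 1 window, that of PIK3AP1, against 7.26% of all. CCAAT, not capitalised, matched in 5 of the 17 windows, against 34.6% of all, and TATAAA in 0, against 11.5%. The printed PIK3CD window has 63.3% G and C and 23 CpG, that of INPP5D 60.3% and 12, and that of PIK3CG 41.7% and 8. A match is a run of letters and not evidence of binding.

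**Figure D1:**
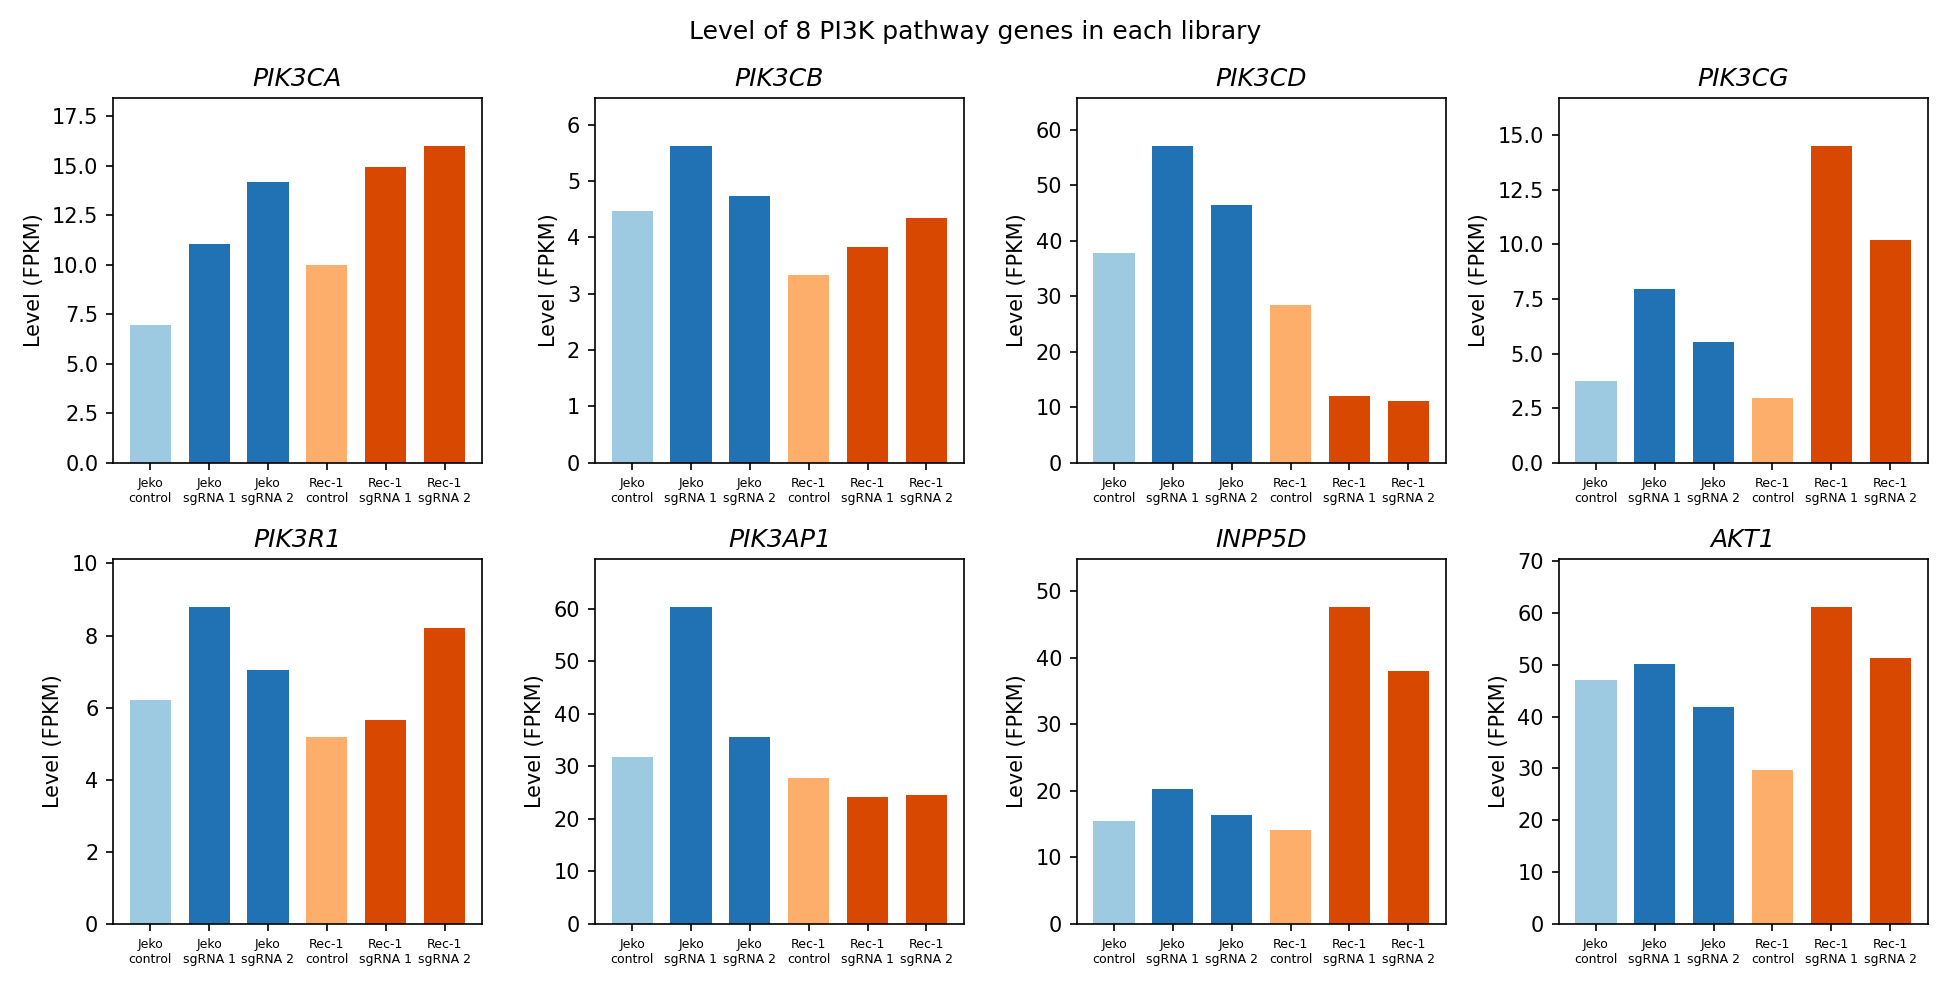
Level in FPKM (vertical axes, each from 0) of the 8 PI3K pathway genes with values above 0, with 1 bar for each of the 6 libraries. PIK3CD stands at 12.03 and 11.11 in the 2 Rec-1 sgRNA libraries and at 28.4 or more in the other 4, and PIK3CG and INPP5D are highest in the 2 Rec-1 sgRNA libraries.

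Among the catalytic genes, PIK3CD (chromosome 1, 9689947 to 9789172, plus strand, GRCh37, protein-coding) differed most between the lines. PIK3CD was at 57.2 and 46.5 FPKM in Jeko sgRNA 1 and 2 and at 12.03 and 11.11 in Rec-1 sgRNA 1 and 2. The groups did not overlap, and the mean of 51.8 ± 7.59 FPKM in Jeko (SD, n = 2) was 4.48-fold that of 11.6 ± 0.65 in Rec-1 (SD, n = 2). The difference between Rec-1 sgRNA and Jeko sgRNA on the log2(FPKM + 1) scale, which understates the change of low genes, was −2.07 (SE 0.19, limma adjusted p = 0.00640). Without Jeko sgRNA 1, Rec-1 sgRNA 1 or Rec-1 sgRNA 2 the limma adjusted p was 0.0551, 0.0671 and 0.0656, with differences of −1.92, −2.12 and −2.01, and without Jeko sgRNA 2 it was 0.0455. In the controls PIK3CD was at 37.8 FPKM in Jeko and at 28.4 in the library labelled Rec-1 control, both above the Rec-1 sgRNA libraries. Exons of PIK3CD overlap exons of CLSTN1 on the opposite strand, and whether the authors counted by strand is not stated. CLSTN1 was at 35.3 and 33.8 FPKM in Jeko sgRNA 1 and 2 and at 64.6 and 42.2 in Rec-1 sgRNA 1 and 2, the opposite order to PIK3CD.

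PIK3CG (chromosome 7, 106505723 to 106549425, plus strand), a catalytic gene whose product responds to G protein-coupled receptors, was at 7.97 and 5.52 FPKM in Jeko sgRNA 1 and 2 and at 14.5 and 10.2 in Rec-1 sgRNA 1 and 2. Both Rec-1 values lay above both Jeko values, by 1.83-fold in the means (6.75 ± 1.73 and 12.4 ± 3.07 FPKM, SD, n = 2 each). Its log2 difference of 0.79 (SE 0.27) did not pass (limma adjusted p = 0.108). It passed after adjustment for transcript length, which kept only protein-coding genes (0.96, limma adjusted p = 0.0368). In the controls PIK3CG was at 3.74 FPKM in Jeko and 2.97 in Rec-1, the lowest of its 6 values.

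PIK3CA (chromosome 3, 178865902 to 178957881, plus strand) and PIK3CB (chromosome 3, 138371540 to 138553770, minus strand) differed less between the lines. PIK3CA was at 11.0 and 14.2 FPKM in Jeko sgRNA 1 and 2 and at 14.9 and 16.0 in Rec-1 sgRNA 1 and 2, without overlap (log2 difference 0.28, SE 0.20, limma adjusted p = 0.335). PIK3CB was at 5.63 and 4.74 FPKM in Jeko against 3.83 and 4.35 in Rec-1, also without overlap (−0.28, SE 0.17, limma adjusted p = 0.275). Neither difference passed the test. Exons of PIK3CA overlap exons of KCNMB3 on the opposite strand, which was at 7.11 FPKM or less in every library. KCNMB3 was at 0.829 and 1.945 FPKM in Jeko sgRNA 1 and 2 and at 4.46 and 7.11 in Rec-1 sgRNA 1 and 2. That is the same order as PIK3CA, and the part of KCNMB3 in the values of PIK3CA was not tested. The genome also holds a partial copy of PIK3CA, so that reads of the gene may have been shared with it.

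Shares of the catalytic genes within a library do not change when all its values are multiplied by 1 factor. PIK3CD held 69.9% and 65.5% of the summed FPKM of the 4 genes in Jeko sgRNA 1 and 2, and 26.5% and 26.6% in Rec-1 sgRNA 1 and 2, a difference of −41.1 percentage points between the means. PIK3CA went the other way, with 13.5% and 20.0% in the Jeko sgRNA libraries against 32.9% and 38.4% in those of Rec-1. PIK3CG likewise held 9.74% and 7.79% in Jeko against 32.1% and 24.5% in Rec-1. The shares of PIK3CB were smaller, 6.88% and 6.69% in Jeko against 8.45% and 10.4% in Rec-1. The 4 shares are parts of 1 whole, so a lower PIK3CD raises the other shares without a change in their levels. PIK3CB thus had a higher share in Rec-1 sgRNA although its level there was lower, at 3.83 and 4.35 FPKM against 5.63 and 4.74 in Jeko. The 4 differences in share are therefore not separate results. For each of the 4 genes the shares of the 2 lines did not overlap, and an exact permutation test, 2-sided, had p = 0.333, the smallest that 2 libraries against 2 allow. In the Jeko control the share of PIK3CD was 71.4%, and in the library labelled Rec-1 control it was 63.6%, both far above the Rec-1 sgRNA libraries. PIK3CD was at 5.18 and 3.28 times the level of PIK3CA in Jeko sgRNA 1 and 2 and at 0.806 and 0.693 times in Rec-1 sgRNA 1 and 2. The summed level of the 4 genes was 81.8 and 70.9 FPKM in Jeko against 45.3 and 41.7 in Rec-1, against 52.9 in the Jeko control and 44.6 in the Rec-1 control.

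**Figure D2:**
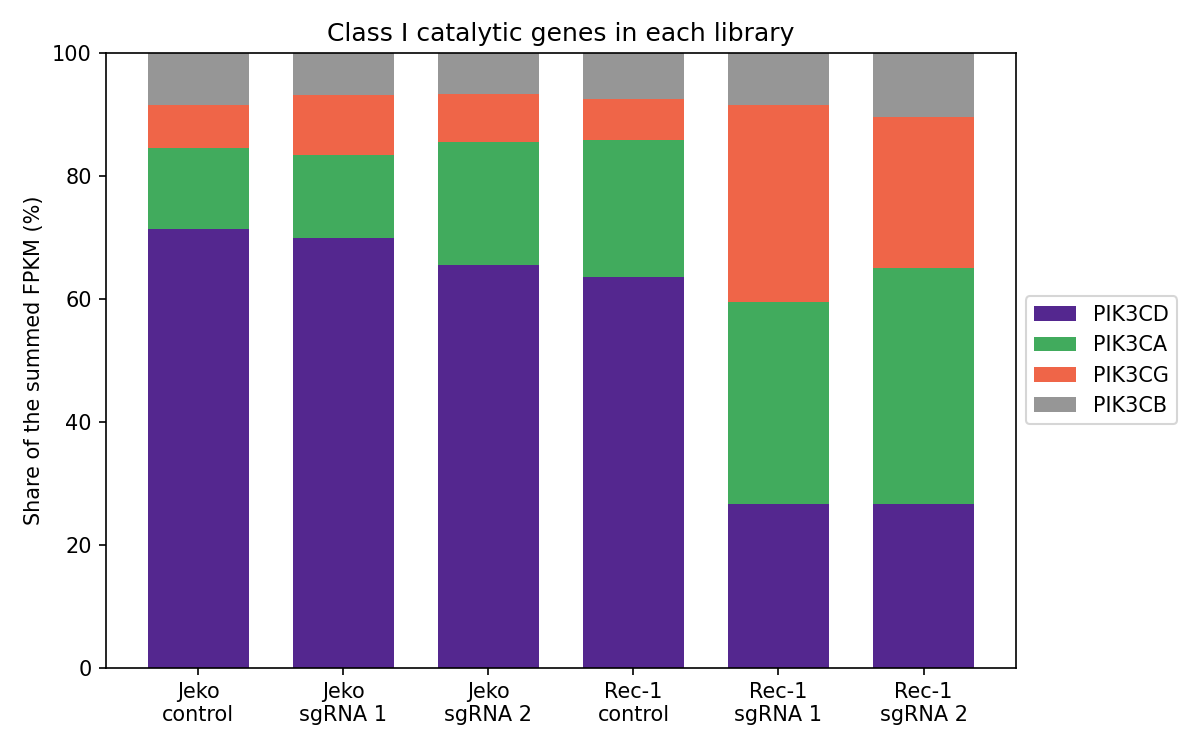
Share of each class I catalytic gene in the summed FPKM of the 4 genes (vertical axis, percent) as stacked bars, 1 for each of the 6 libraries. PIK3CD holds between 63.6% and 71.4% in both controls and the Jeko sgRNA libraries, and 26.5% and 26.6% in those of Rec-1 sgRNA, where PIK3CA holds the largest share.

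Of the regulatory genes, PIK3R1 (chromosome 5, 67511568 to 67597649, plus strand) was at 8.80 and 7.04 FPKM in Jeko sgRNA 1 and 2 and at 5.66 and 8.21 in Rec-1 sgRNA 1 and 2. These values overlapped, and the log2 difference was −0.18 (SE 0.24, limma adjusted p = 0.607). The level of PIK3R1 relative to the sum of PIK3CA, PIK3CB and PIK3CD was 0.119 and 0.108 in Jeko against 0.184 and 0.261 in Rec-1. PIK3R5 (chromosome 17, 8782228 to 8869029, minus strand) was listed at 0 in all 6 libraries, and PIK3R6, its relative, at 0 in 4 and at 0.0182 and 0.0197 FPKM in Rec-1 sgRNA 1 and 2. EEF1A1, a translation factor used by every cell, was also listed at 0 in all 6, so a 0 in this table can be a failed estimate.

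PIK3AP1, INPP5D and AKT1 act before and after PIP3. PIK3AP1 (chromosome 10, 98353072 to 98480271, minus strand) was at 60.4 and 35.7 FPKM in Jeko sgRNA 1 and 2 and at 24.2 and 24.5 in Rec-1. The guides of Jeko lay far apart, and the log2 difference of −0.91 (SE 0.31) did not pass (limma adjusted p = 0.103). INPP5D (chromosome 2, 233924677 to 234116549, plus strand) was at 20.2 and 16.4 FPKM in Jeko against 47.65 and 37.96 in Rec-1. It was 2.34-fold higher in the mean of Rec-1 sgRNA, by 1.18 on the log2 scale (SE 0.22, limma adjusted p = 0.0308). The INPP5D call was lost without any 1 of the 4 sgRNA libraries (limma adjusted p between 0.0999 and 0.145), with a difference between 1.02 and 1.34. AKT1 (chromosome 14, 105235686 to 105262088, minus strand) was at 50.2 and 41.9 FPKM in Jeko against 61.2 and 51.4 in Rec-1 (log2 difference 0.28, SE 0.21, limma adjusted p = 0.353). The level of INPP5D relative to AKT1 was 0.403 and 0.391 in Jeko against 0.779 and 0.739 in Rec-1. In GENCODE, a lncRNA gene without a symbol overlaps exons on the opposite strand of INPP5D and another of AKT1.

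Between the lines, 2 of the 8 tested PI3K genes passed, INPP5D higher and PIK3CD lower in Rec-1 sgRNA, or 25%, beside 25.9% of all 11400 tested genes. The values of Rec-1 sgRNA and Jeko sgRNA did not overlap at 7 of the 8, beside 69.9% of all tested genes. Their median log2 difference was 0.05, beside −0.03 over all. The share of PI3K genes that differed between the lines was thus close to that of all genes.

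FPKM are per length, so the level of a gene can be set beside that of another, but only within limits. Reads shared with a partial copy or an overlapping gene, and failed estimates, all named above, can still shift the order and the ratios between genes. In the Jeko control and the library labelled Rec-1 control, the order from high to low was the same, AKT1, PIK3CD, PIK3AP1, INPP5D, PIK3CA, PIK3R1, PIK3CB and PIK3CG. In both Rec-1 sgRNA libraries it began with AKT1, INPP5D, PIK3AP1 and PIK3CA and ended with PIK3R1 and PIK3CB. There PIK3CG came just before PIK3CD in Rec-1 sgRNA 1 and just after it in Rec-1 sgRNA 2, so that these neighbours did not differ beyond the spread of the guides. In the Jeko sgRNA libraries PIK3AP1, PIK3CD and AKT1 held the first places in an order that changed between guides.

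In Jeko, the comparison with the own-line control asks what followed from targeting NR4A1, with 1 control library that is assumed to vary like the guides. Of the 8 tested PI3K genes, 7 were higher than the control with both guides, beside 36.9% of all tested genes, and the exception was AKT1. PIK3CA was at 159% and 204% of its control level of 6.95 FPKM, PIK3CG at 213% and 148%, PIK3CD at 151% and 123%, and PIK3AP1 at 190% and 112% of its 31.8 FPKM. INPP5D was at 131% and 106%, PIK3R1 at 142% and 113%, PIK3CB at 126% and 106% and AKT1 at 107% and 89.0% of the control. No PI3K gene passed the limma test, beside 0.439% of all genes. At an unadjusted p under 0.05 there was 1 of the 8, beside 11.3% of all genes. The difference of largest size was that of PIK3CA at 0.77 (SE 0.24, limma adjusted p = 0.409). The 8 genes have transcripts of between 2957 and 9259 bases, 7 of them longer than the median of 3224 over tested protein-coding genes. The median log2 difference of the 8 was 0.37, beside 0 over all genes, and 0.10 after adjustment for transcript length, when 5 of 8 were positive.

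In Rec-1, 6 of the 8 PI3K genes were higher than the library labelled control with both guides, beside 41.8% of all genes, and PIK3CD and PIK3AP1 were lower with both, beside 43.1%. Of these PIK3CG and INPP5D passed as higher and PIK3CD as lower, or 37.5% of the 8, beside 19.2% of all genes tested. PIK3CG was at 489% and 343% of its control level with guides 1 and 2 (log2 difference 1.73, SE 0.33, limma adjusted p = 0.0394). INPP5D was at 339% and 270% of 14.1 FPKM (1.53, SE 0.27, limma adjusted p = 0.0327). PIK3CD was at 42.4% and 39.1% (−1.23, SE 0.24, limma adjusted p = 0.0399). AKT1 was at 206% and 173% of its control level of 29.8 FPKM without passing (0.89, SE 0.25, limma adjusted p = 0.0824). PIK3CA was at 150% and 161%, PIK3CB at 115% and 131%, PIK3R1 at 109% and 158% and PIK3AP1 at 86.9% and 88.1%. With no low-value filter the limma adjusted p of PIK3CD, INPP5D and PIK3CG was 0.0504, 0.0508 and 0.0756, and without any 1 of the 4 sgRNA libraries all 3 calls were lost (limma adjusted p between 0.0842 and 0.147). With guide number added as a block, PIK3CD no longer passed (limma adjusted p = 0.0735). The block coded the controls with guide 1, so that difference refers to guide 1. In the same comparison the summed T-cell markers stood at 2.69 FPKM in the control and at 102 and 120 with guides 1 and 2, and their part in these results was not tested.

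These 3 calls rest on the library labelled Rec-1 control, for which there is no replicate. Whether its label is right was not tested, and neither were the labels of the Rec-1 sgRNA libraries. If those of the Rec-1 sgRNA libraries were wrong, the comparison between the lines would not be one of Jeko with Rec-1. If the label of the control were wrong, the differences against that library and the interaction would be differences between lines as well. These cases cannot be told apart here. At 6 of the 8 PI3K genes that library was nearer on the log2 scale to the Jeko control than to the mean of the Rec-1 sgRNA libraries, and its median distance was 0.30 to the former and 0.74 to the latter. The directions at PIK3CD, PIK3CG and INPP5D against that control were those of Rec-1 sgRNA against Jeko sgRNA. The 2 comparisons share the Rec-1 sgRNA libraries. The library labelled Rec-1 control was lower than the Jeko control at 7 of the 8 genes, and at 5 it had the lowest value of all 6 libraries.

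**Figure D3:**
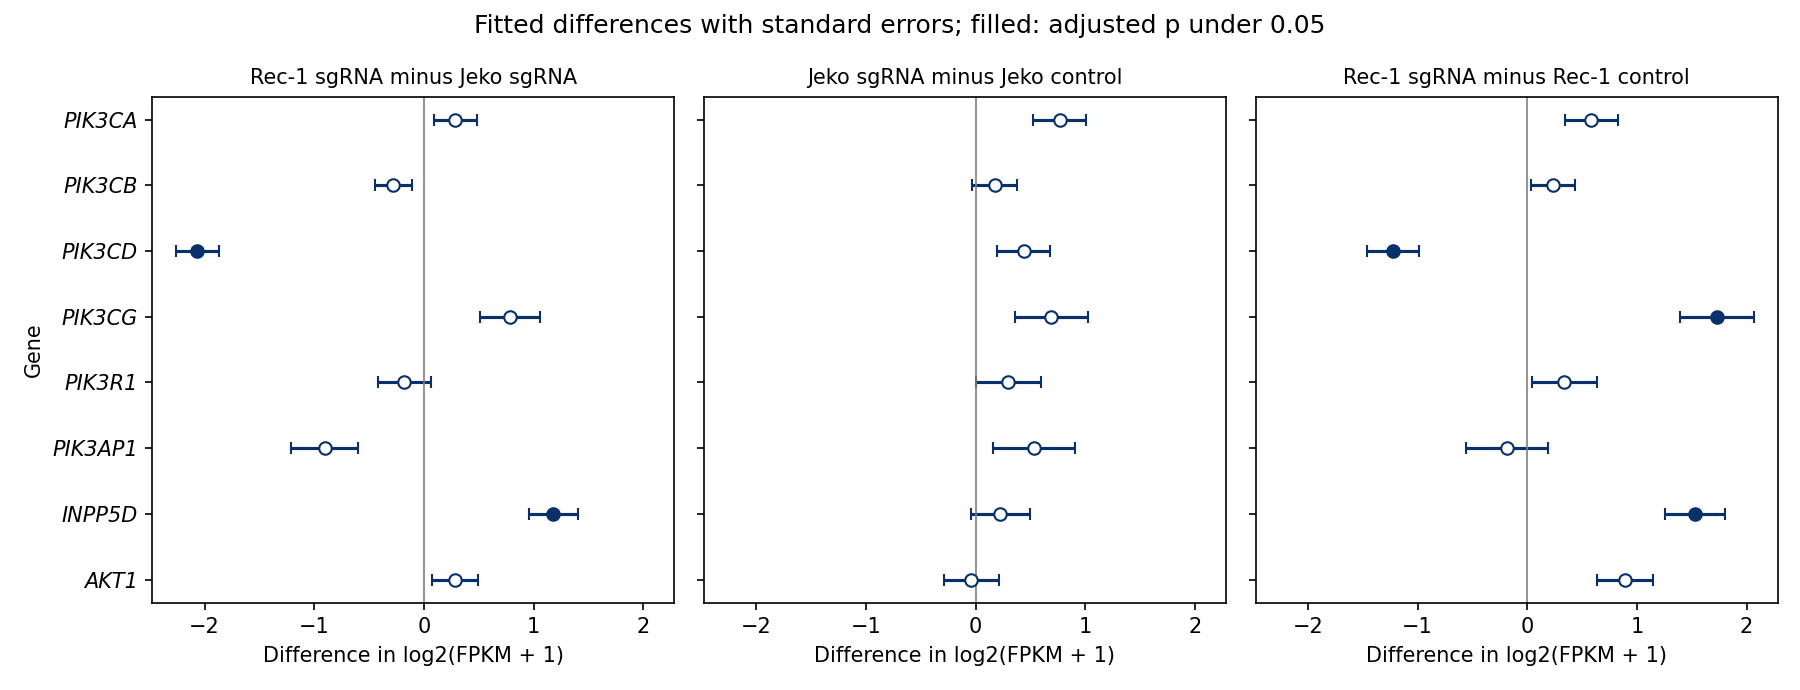
Fitted difference in log2(FPKM + 1) (horizontal axes, points, with bars of 1 standard error) of 8 PI3K genes in 3 comparisons, filled where the limma adjusted p was under 0.05. PIK3CD (−2.07) and INPP5D (1.18) are filled between the lines, none is filled in Jeko, and PIK3CD, PIK3CG and INPP5D are filled in Rec-1.

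Whether the difference from the own-line control itself differed between the lines was tested as an interaction. None of the 8 genes passed the limma test, beside 6.94% of all genes. At an unadjusted p under 0.05 there were 2 of the 8, beside 21.9% of all genes. PIK3CD came nearest, 1.66 lower in Rec-1 than in Jeko on the log2 scale (interaction −1.66, SE 0.34, limma adjusted p = 0.0799), and passed narrowly with protein-coding genes only (limma adjusted p = 0.04998). INPP5D had an interaction of 1.31 (SE 0.38, limma adjusted p = 0.159) and PIK3CG one of 1.04 (SE 0.47, limma adjusted p = 0.305).

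Other genes of the pathway were followed through 5 lists with 65 genes, of which 56 were tested. Between the lines 11 were higher and 10 lower in Rec-1 sgRNA, or 37.5%, beside 25.9% of all tested genes, with a median log2 difference of 0.05, beside −0.03 over all. Against the own-line control 0 of the 56 passed the limma test in Jeko, beside 0.439% of all genes, with 8 at an unadjusted p under 0.05, beside 11.3% of all. In Rec-1 10 were higher and 7 lower, or 30.4%, beside 19.2% of all. The counts of each list below stand against these same shares over all genes, 25.9% between the lines and 19.2% against the Rec-1 control, and were not tested against them. The median differences from the control were 0.19 in Jeko and 0.16 in Rec-1, beside 0 over all genes.

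Of 7 tested genes for other PI3K subunits and classes, 2 rose and 1 fell in Rec-1 sgRNA against Jeko sgRNA. PIK3C2A, a class II kinase, was at 3.73 and 4.25 FPKM in Jeko against 7.70 and 7.84 in Rec-1 (log2 difference 0.82, SE 0.15, limma adjusted p = 0.0301). PIK3IP1, a transmembrane inhibitor of PI3K, was at 3.998 and 4.071 FPKM in Jeko against 12.1 and 8.14 in Rec-1 (1.12, SE 0.23, limma adjusted p = 0.0378). PIK3R2, a further regulatory subunit, was at 13.1 and 12.7 FPKM in Jeko against 7.57 and 6.37 in Rec-1 (−0.81, SE 0.17, limma adjusted p = 0.0393). Against the Rec-1 control 2 of the 7 rose, PIK3C2A (1.45, limma adjusted p = 0.0163) and PIK3C2B (1.32, limma adjusted p = 0.0365).

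Of 14 tested B-cell receptor and adaptor genes, 3 were higher and 2 lower in Rec-1 sgRNA than in Jeko sgRNA. CBL, a ubiquitin ligase that acts on activated receptors and kinases, was at 2.33 and 2.63 FPKM in Jeko against 11.0 and 11.6 in Rec-1 (log2 difference 1.82, limma adjusted p = 0.00454). Adaptors of the insulin receptor went in opposite directions. IRS1 was at 0.286 and 0.329 FPKM in Jeko against 3.97 and 5.53 in Rec-1 (limma adjusted p = 0.00531), whereas IRS2 was at 3.06 and 5.59 in Jeko and listed at 0 in both Rec-1 sgRNA libraries (limma adjusted p = 0.0109). In the library labelled Rec-1 control CBL was at 1.22 FPKM, IRS1 at 0.173 and IRS2 at 5.99. Against that control 2 of the 14 rose and 2 fell, CBL, IRS1 and IRS2 in the directions above.

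Of 6 tested phosphoinositide phosphatases, none passed the limma test between the lines, with 2 at an unadjusted p under 0.05, beside 42.3% of all genes. Against the Rec-1 control INPP4A alone rose, from 2.58 FPKM to 6.04 and 6.63 (log2 difference 1.04, limma adjusted p = 0.0425).

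Downstream of PIP3, 2 of 20 tested genes rose and 4 fell between Jeko sgRNA and Rec-1 sgRNA. EIF4EBP1, a repressor of translation that mTOR inactivates, was at 75.4 and 135 FPKM in Jeko sgRNA and 200 and 275 in the controls, and was listed at 0 in both Rec-1 sgRNA libraries (limma adjusted p = 0.00174). AKT1S1, a subunit of the mTOR complex that AKT phosphorylates, was higher in Rec-1 sgRNA by 1.22 on the log2 scale (limma adjusted p = 0.0185). Against the Rec-1 control 1 of the 20 rose, GSK3B at 1.41 on the log2 scale (limma adjusted p = 0.0230), and 2 fell, EIF4EBP1 among them.

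Of 9 tested genes that depend on FOXO factors in lymphocytes, 4 were higher and 3 lower in Rec-1 sgRNA than in Jeko sgRNA, and the same numbers were found against the Rec-1 control. BCL2L11, which encodes the cell death protein BIM, was at 11.1 and 10.7 FPKM in Rec-1 sgRNA 1 and 2 and under 0.1 in the other 4 libraries (log2 difference between the lines 3.51, limma adjusted p = 0.00139). IL7R, a cytokine receptor that T cells also carry, was at 17.1 and 22.4 FPKM in Rec-1 sgRNA and under 0.2 in the others (4.17, limma adjusted p = 0.00156). CDKN1B, an inhibitor of cell cycle kinases, was at 8.18 and 9.05 FPKM in Rec-1 sgRNA and at 71.6 or more in the others (−3.16, limma adjusted p = 0.00399). S1PR1, a receptor for lymphocyte exit from tissue, was at 12.2 FPKM in the Rec-1 control and at 0.0177 FPKM and listed at 0 in Rec-1 sgRNA 1 and 2 (−3.71 against the control, limma adjusted p = 0.00764). The members of this list therefore did not share a direction.

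**Figure D4:**
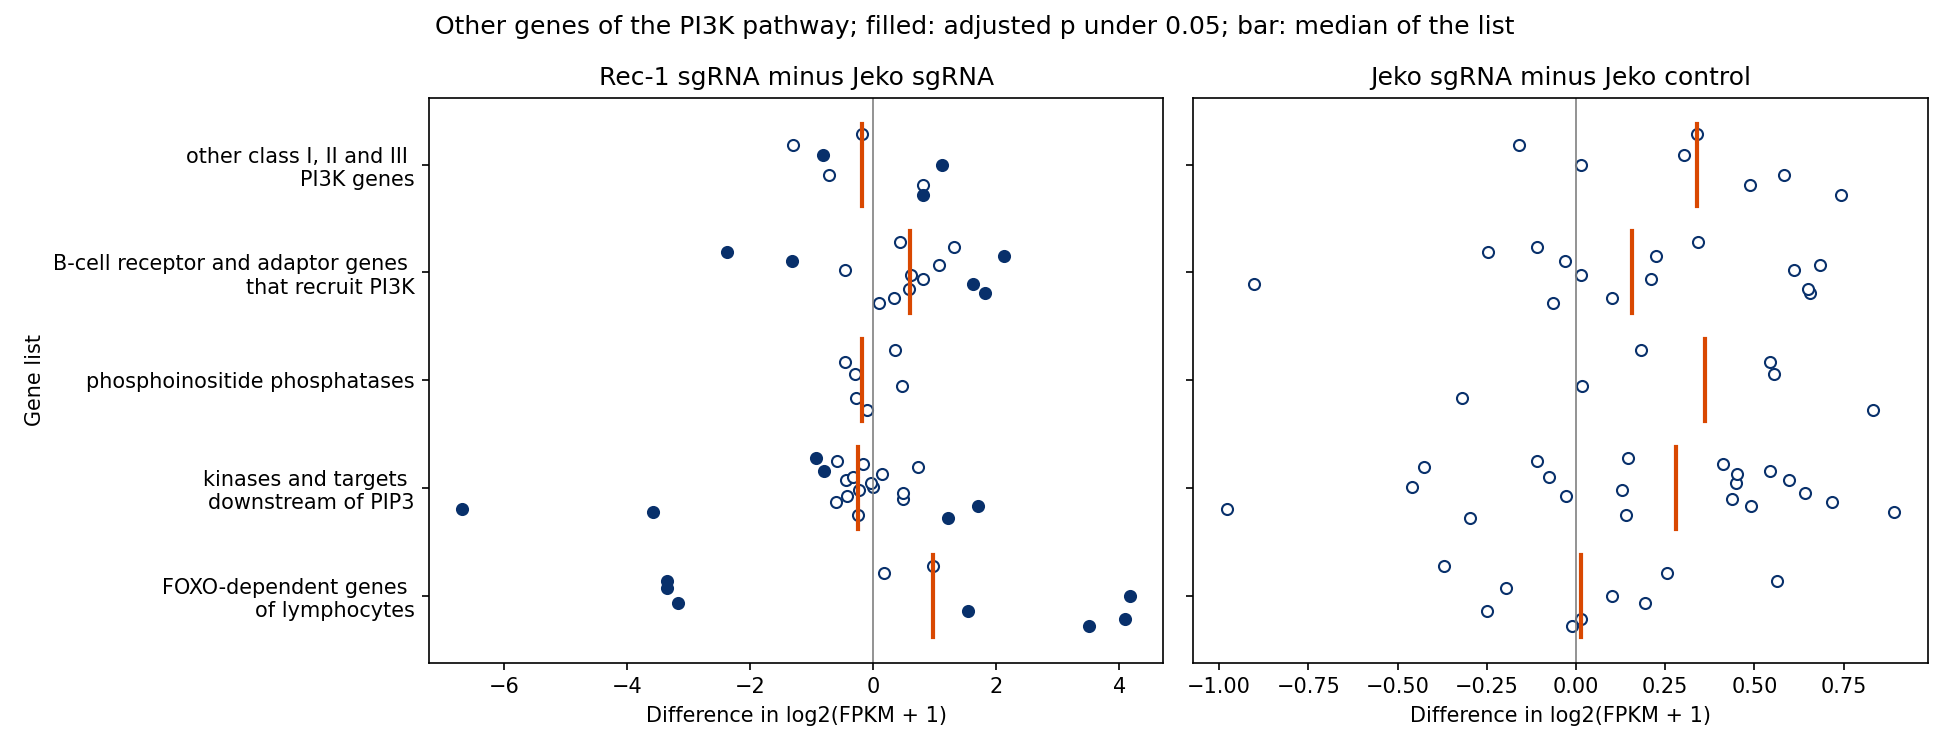
Difference in log2(FPKM + 1) (horizontal axes, which differ between panels) of each tested gene in 5 lists of the PI3K pathway, between the lines (left) and in Jeko against its control (right). Points are genes, filled where the limma adjusted p was under 0.05, and bars are list medians. 21 genes are filled on the left and 0 on the right.

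The genes whose levels over the 6 libraries were most like those of PIK3CD and PIK3CG were sought among 6196 tested genes with a range of at least 1 on the log2 scale. For PIK3CD they were DENND2A, AGAP1 and TP73 (Pearson r of log2 values 0.999, 0.999 and 0.998). Each of the 3 was at 0.207 FPKM or less with either guide in Rec-1 and was highest in Jeko sgRNA 1. For PIK3CG, whose range of 1.97 was the widest after that of PIK3CD at 2.26, they were FLI1, LRRC58 and LOC389906 (r 0.997, 0.996 and 0.995). FLI1, an ETS transcription factor, was at 15.1 and 10.6 FPKM in Jeko sgRNA and 26.6 and 19.0 in Rec-1 sgRNA, against 8.52 and 7.12 in the controls. The 6 libraries are not independent points, since the 2 of Rec-1 sgRNA stand apart from the other 4.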

How the data were processed

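The authors deposited 1 table of FPKM per gene with 1 column per library, per the file headers. TopHat and hg19 are named in the submitters' processing notes. The program that computed FPKM, the annotation and the use of strand are not given in the sources used here. Libraries summed to between 905778 and 1160110 FPKM. Depth in fragments is not given. From the commonest ratio among genes under 0.05 FPKM, it was between 0.687 and 1.1 times that of the Jeko control where one could be read, and none could for Rec-1 sgRNA 1, where 1.25% of genes shared the commonest ratio.

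Values were analysed as log2(FPKM + 1) for the 11400 genes whose mean reached 1 FPKM, in 1 fit of 4 group means (limma 3.58.1, R 4.3.3, lmFit, contrasts and eBayes with trend). Benjamini-Hochberg adjustment ran over all genes tested, with a threshold of 0.05. The spread comes from the guides alone, with 2 residual degrees of freedom, and each control is assumed to vary like them. The fit was tested on simulated data. Alternatives were another pseudocount, other filters, median scaling, quantile normalization, adjustment for transcript length, protein-coding genes only, a guide block and leaving out libraries. Gene models are from GENCODE 44 on GRCh37, in which 22634 of the 25277 rows matched 1 gene.

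The genes and lists were chosen with earlier results of these data known. The 9 PI3K genes and NR4A1 are always named, with up to 3 genes per list and comparison that passed, by smallest p, and the 3 genes most like PIK3CD and the widest-ranging other gene. A gene that the rule names is not reported here.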

Additional observations from a re-analysis of the deposited data

Results flagged for a closer look

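The difference from the own-line control went in opposite directions in the 2 lines at PIK3CD, PIK3AP1 and NR4A1. PIK3CD was higher than the control with both guides in Jeko and lower with both guides in the other line (interaction −1.66, SE 0.34, limma adjusted p = 0.0799). PIK3AP1 did the same (interaction −0.72, SE 0.53, limma adjusted p = 0.499), and its Rec-1 differences of −0.20 and −0.18 were small. NR4A1 was lower in Jeko and higher in the Rec-1 libraries (interaction 1.09, SE 0.69, limma adjusted p = 0.438). None of the 3 passed the test of the difference. Over all genes 791 passed it (limma adjusted p under 0.05), with 1 control library in each line.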

How the results depend on the processing

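Of 446 values of the PI3K genes and NR4A1 under alternatives, 406 kept direction and side of the threshold, 27 no longer passed, 2 newly passed and 11 changed sign, none of the 11 at a difference that had passed. Signs changed against the Jeko control with adjustment for transcript length at PIK3CB (−0.13) and PIK3R1 (−0.036), and for AKT1 with quantile normalization (0.027) and the guide number as a replicate block (0.088). Since the block coded the controls with guide 1, its differences from a control refer to guide 1 and not to the mean of the guides. Adjustment for transcript length also moved the interaction of PIK3CA to 0.052. With 1 guide left out, differences ranged from −0.41 to 0.054 (PIK3R1, between the lines), from −0.16 to 0.090 (AKT1, Jeko against control), from −0.042 to 0.165 (PIK3CB, interaction) and from −0.20 to 0.27 (PIK3R1, interaction).

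The number of genes that passed between the lines was 2947, against 1549 with a minimum mean of 5 FPKM and between 803 and 946 without 1 guide. In Rec-1 against its control it was 2184, against 1083 and between 657 and 1046. For the interaction it was 791, against 318 and between 75 and 454, and 428 with the replicate block. In Jeko against its control it was 50, against 3 with protein-coding genes only. It was 10 with adjustment for transcript length, which also kept only protein-coding genes. Fits without 1 guide have 1 residual degree of freedom. Deviations of same-numbered guides from the means of their lines had a correlation of 0.0998 over 11400 genes and 0.208 over the 10316 protein-coding ones. The labels name no shared batch and there are only 2 pairs, so the numbers were not taken to pair the libraries, which remains uncertain. With only the 3 Jeko libraries in the fit, an alternative chosen after the data were seen, 50 genes passed in Jeko and none of the 8 PI3K genes did. Fragment depth is not given, so low values such as those of PIK3R6 carry no interval.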

Other observations

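SPI1, which encodes PU.1 and was named after its values were seen, was at 17.7 FPKM in the Jeko control, 17.5 and 13.9 in Jeko sgRNA 1 and 2, 16.1 in the library labelled Rec-1 control, and 82.1 and 45.8 in Rec-1 sgRNA 1 and 2. Between the lines its log2 difference was 1.91 (SE 0.35, limma adjusted p = 0.0296), in the same direction as those of INPP5D and of PIK3CG, which itself did not pass (limma adjusted p = 0.108). SPI1 did not pass against the Rec-1 control (1.86, limma adjusted p = 0.0554), against the Jeko control (−0.18, limma adjusted p = 0.893) or in the interaction (2.04, limma adjusted p = 0.163). Of the tested PI3K genes without the PU.1 letters in a window, PIK3CA and AKT1 were also higher in Rec-1 sgRNA than in Jeko sgRNA, without passing. PIK3CD, PIK3CB, PIK3R1 and PIK3AP1, also without the letters, were lower. No binding was measured in these libraries, and whether PU.1 acts on any of these genes was not tested.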
